A study of Gallus gallus with 8 samples.

Results

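Clock output factors carry the time signal of the circadian oscillator to the genes a liver cell uses. The set described here was chosen by symbol, with earlier results of these data known, as HLF, TEF and DBP, NFIL3, NR1D1, RORA, BHLHE41 and USP2. Of these 8 symbols, 7 match a row of the authors' deposited table and all 7 have a group mean above 0, out of 23613 genes in that table. DBP was not analysed here. The samples were livers of broiler chickens (Gallus gallus), all labelled male and all taken on day 46. The low density group (treatment A) was raised towards 24.4 kg/m2 (5 lb/ft2) as its final density, and the high density group (treatment D) towards 39.1 kg/m2 (8 lb/ft2). Each group had 4 libraries, and each library pooled equal RNA from 4 birds, so 16 birds stand behind each group. No strain, genotype or diet was labelled, and the sources used here do not give the hour of sampling.

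The clock is a feedback loop. CLOCK and BMAL1 (gene symbol ARNTL) activate genes at E-box sequences, and the PER, CRY and DEC proteins made from such genes repress that activity. A further arm runs through short elements read by opposing nuclear receptors: REV-ERB proteins (NR1D1, NR1D2) repress and ROR proteins activate at the same element, which sets the rhythm of ARNTL. The output arm described here works at the D-box, where the PAR bZIP activators DBP, TEF and HLF compete with the repressor NFIL3. In rodent liver, PAR bZIP factors drive enzymes and receptors of detoxification and lipid metabolism. The chicken TEF protein was first described as VBP, a factor that binds the promoter of the yolk protein gene vitellogenin.

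The table gives 1 comparison, high over low density, with no value per library. The spread between pools, how many pools share a direction and the read depth are therefore unknown for every gene below. For each gene the table gives the higher of the group means on a scale its header does not name. The lower mean was computed from the fold change, and levels of single genes are compared within a gene only. Means of marker lists are also summed below, and such sums mostly follow the genes with the largest means. The table gives no error, so each implied standard error (SE) and 95% interval below was computed from the deposited log2 fold change and p-value by assuming a Wald test. In bulk liver RNA, fewer cells of a type and less RNA per cell cannot be told apart.

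At high density 6 of the 7 clock output genes had a higher mean, and NFIL3 was the 1 with a lower mean. No gene of the set passed an adjusted p of 0.05 in the authors' deposited table, where 55 of 20170 genes with a result did (0.273%). At an unadjusted p under 0.05 the authors' deposited table held 4 of the 7: HLF, USP2 and BHLHE41 on the high side and NFIL3 on the low side. The background for that rule was 5.58% of all genes in either direction, 2.46% on the high side and 3.12% on the low side. A log2 fold change above 0 was found in 50.3% of all genes with a result and in 47.8% of those with a mean of at least 1. Over the 7 genes the log2 fold change had a median of 0.14, against -0.01 over 10867 genes whose mean was at least 1, where the quartiles were -0.11 and 0.08. The genes were put together with results of this table known, so these counts describe the set.

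**Figure D1:**
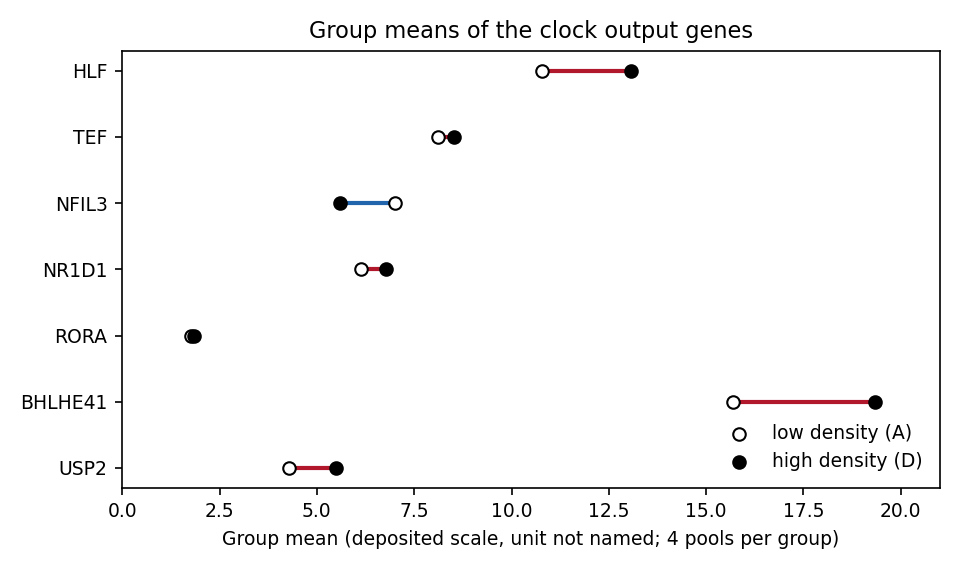
Group means of the 7 clock output genes on the deposited scale, whose unit is not named (x axis), at low density (open circles) and high density (filled circles). The higher mean of each gene is the deposited one, and the lower was computed from the fold change. Each group had 4 pools, and no error is given. Each line joins the means of 1 gene and is to be read within its row, as in HLF from 10.8 to 13.1 and NFIL3 from 6.995 to 5.60.

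The D-box factors did not all lie on the same side of 0. HLF, a PAR bZIP activator, lies on chromosome 18 (ENSGALG00000003059, GRCg6a 5906620 to 5937242, plus strand). Its mean was 10.8 at low and 13.1 at high density, a 1.21-fold difference and a log2 fold change of 0.28 per the authors' deposited table. The implied SE was 0.12 and the implied 95% interval ran from 0.05 to 0.51. With an unadjusted p of 0.0159 it had the smallest p of the set and stood at place 497 of the 20170 genes with a result, and its adjusted p was 0.75 per the authors' deposited table. The HLF gene model overlaps no other in that table.

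TEF, the other PAR bZIP activator with a row, was close to level (ENSGALG00000011958, chromosome 1, 49664266 to 49678899, minus strand). Its means were 8.12 at low and 8.51 at high density, with a log2 fold change of 0.07 per the authors' deposited table. The implied interval of -0.21 to 0.35 spans 0 and also holds the value of HLF (p = 0.635, adjusted p = 1.0 per the authors' deposited table). A gene model without a symbol, ENSGALG00000049545, lies on the same strand past the downstream end of TEF, with 149 bases between them. That model had means of 7.64 and 8.85, a log2 fold change of 0.21 and an unadjusted p of 0.0459 per the authors' deposited table. Whether its reads belong to TEF transcripts was not tested.

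NFIL3, also called E4BP4, represses at the same D-box sites and in mammals is also needed for the development of natural killer cells. It lies on the Z chromosome (ENSGALG00000015209, 44356123 to 44369961, minus strand). NFIL3 had a mean of 6.995 at low and 5.60 at high density, a log2 fold change of -0.32 per the authors' deposited table. The implied SE was 0.16 and the implied 95% interval ran from -0.63 to -0.012. Its unadjusted p of 0.0417 put it at place 961, and its adjusted p was 1.0 per the authors' deposited table. The log2 fold change of HLF lay 0.60 above that of NFIL3, and that of TEF lay 0.39 above it. Neither gap was tested, since how these genes vary together between pools is unknown.

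Values of immune cell markers and of the sex chromosomes are given beside that of NFIL3. The immune lists did not all go the same way. Heterophil markers were higher at high density in 7 of 8 cases (median log2 fold change 0.74). B cell markers were higher in 3 of 5 (median 0.09). All 11 T and NK cell markers with a result, of 14 listed, were lower at high density (median log2 fold change -0.43). Of these, 4 had an unadjusted p under 0.05, against 3.12% of all genes on the low side. Their summed mean was 69.5 at low and 50.2 at high density. GNLY, a protein of cytolytic granules, made up 32.1 and 21.5 of these sums. It fell (log2 fold change -0.58, adjusted p = 0.0396 per the authors' deposited table). Macrophage markers were lower in 7 of 7 cases, by a median of 0.08 on the log2 scale, with summed means of 529 and 492 and none at an unadjusted p under 0.05. MARCO, a scavenger receptor with the smallest p of these, had a log2 fold change of -0.20 (p = 0.128 per the authors' deposited table). Of 481 Z chromosome genes at a mean of 1 or more, 208 were higher, and their median log2 fold change was -0.02. Only 8 W chromosome genes, which birds labelled male should lack, reached that mean, and all 8 were higher (median 0.87) with 0 at an unadjusted p under 0.05. Over all 92 W genes with a result, most of them at means under 1, 70 were higher (median 0.89) and 10 had an unadjusted p under 0.05. AUH, the nearest Z-linked neighbour of NFIL3 on its strand, had a log2 fold change of -0.08 (p = 0.41 per the authors' deposited table). The part of cell makeup or of sex in the NFIL3 value was not tested.

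**Figure D2:**
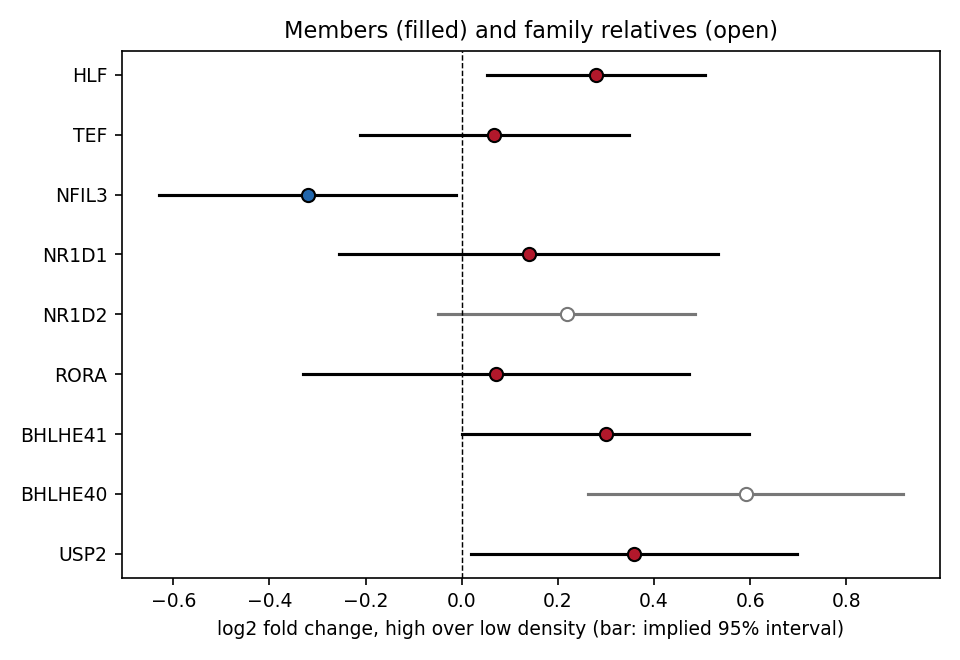
Log2 fold change of high over low density (x axis) for the 7 clock output genes (filled, red above and blue below 0) and for NR1D2 and BHLHE40, their relatives (open). Bars are implied 95% intervals, and those of HLF, USP2 and BHLHE41 lie above 0, that of NFIL3 below 0, and those of TEF, NR1D1 and RORA across 0.

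Of the receptors of the REV-ERB and ROR element, NR1D1, NR1D2 and RORA had small positive values with intervals across 0. NR1D1, which encodes the repressor REV-ERB alpha, lies on chromosome 27 (ENSGALG00000047662, 7166155 to 7171281, minus strand). NR1D1 had means of 6.14 and 6.77 and a log2 fold change of 0.14 per the authors' deposited table, with an implied interval of -0.25 to 0.53 (p = 0.487). Its partner NR1D2, REV-ERB beta, had means of 14.1 and 16.4 and a log2 fold change of 0.22 (p = 0.11 per the authors' deposited table). In mammals NR1D1 overlaps the thyroid hormone receptor gene THRA on the other strand. Here the THRA model ends 2076 bases away, and THRA had a log2 fold change of -0.05 (p = 0.665 per the authors' deposited table).

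RORA, the activating receptor and the longest gene of the set with a span of 347558 bases, lies on chromosome 10 (ENSGALG00000003759, 5138735 to 5486292, plus strand). Its means of 1.76 and 1.85 gave a log2 fold change of 0.07 per the authors' deposited table (implied interval -0.33 to 0.47, p = 0.729, the largest p of the set). A small RNA model inside it is listed at 0. RORB, known from brain and retina, had a mean of at most 0.0034 and a log2 fold change of 1.60 per the authors' deposited table. At that mean its implied SE was 2.34. All 4 receptor genes described here therefore had a positive log2 fold change, that of RORB at a mean of at most 0.0034. Of the 4, 0 had an adjusted p under 0.05 and 0 an unadjusted p under 0.05.

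BHLHE41 encodes DEC2, a repressor that acts at E-boxes against CLOCK and BMAL1. The gene (ENSGALG00000048539, chromosome 1, 67588709 to 67590637, minus strand) had means of 15.7 at low and 19.3 at high density. Its log2 fold change was 0.30 per the authors' deposited table, 1.23-fold, with an implied SE of 0.15 and an implied interval of 0.0015 to 0.60. The unadjusted p of 0.0489 lies just under 0.05, and the adjusted p was 1.0 per the authors' deposited table. BHLHE40, which encodes the related repressor DEC1, had means of 6.75 and 10.2. Its log2 fold change was 0.59 (p = 0.000396, adjusted p = 0.11 per the authors' deposited table), with an implied SE of 0.17. The BHLHE41 model spans 1929 bases, which puts it among the 1088 shortest genes with a mean of at least 1 (up to 2682 bases). These had a median log2 fold change of -0.09, and 366 of them were higher. The part of gene length in the BHLHE41 value was not tested.

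USP2 encodes a deubiquitinating enzyme whose transcript cycles in mouse liver and whose protein acts on PER and CRY proteins there. It had the largest positive value of the set. The gene (ENSGALG00000006755, chromosome 24, 4209130 to 4218970, plus strand) had means of 4.28 at low and 5.49 at high density. Its log2 fold change was 0.36 per the authors' deposited table, 1.28-fold, with an implied SE of 0.17 and an implied interval of 0.02 to 0.70. USP2 stood at place 909 with an unadjusted p of 0.0388, and its adjusted p was 1.0 per the authors' deposited table. THY1 and C1QTNF5, its neighbours on the same strand, had log2 fold changes of -0.45 (p = 0.142) and -0.15 (p = 0.394) per the authors' deposited table. Of the other 10 turnover and kinase genes of the clock with a result, none had an unadjusted p under 0.05, and the ubiquitin proteases USP7 and USP14 had values of 0.03 and -0.002 per the authors' deposited table.

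**Figure D3:**
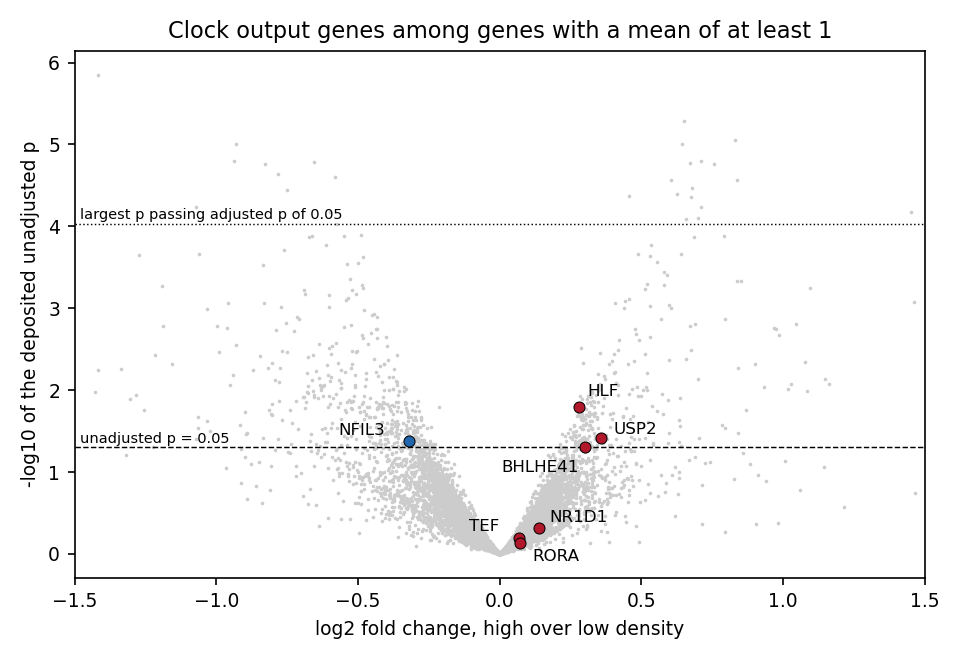
Log2 fold change of high over low density (x axis) against -log10 of the deposited unadjusted p (y axis) for 10842 genes whose mean was at least 1 (grey; 25 lie outside the axes or have a p of 0), with the clock output genes in red (higher) or blue (lower). HLF, USP2, BHLHE41 and NFIL3 lie above the dashed line of an unadjusted p of 0.05 and no member reaches the dotted line, which is the largest p that passed the adjustment.

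No value of this set reached the sizes that the table calls. The largest unadjusted p among called genes was 9.24e-05, and the smallest called change was 0.46 on the log2 scale. The implied SEs of the 7 genes ran from 0.12 to 0.20. Among genes with a mean of at least 1, 7.21% had a larger change than USP2 in either direction, 8.99% than NFIL3, 10.4% than BHLHE41, 11.9% than HLF and 61.8% than TEF.

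The loop that drives these outputs had values on both sides of 0. Of 5 genes listed as clock repressors with a result, 4 were higher and 1 lower. As deposited 0 were called, while 3 on the high side had an unadjusted p under 0.05. PER3 had a log2 fold change of 0.68 (adjusted p = 0.0516), CRY2 one of 0.41 (adjusted p = 0.178) and PER2 one of 0.33 (adjusted p = 0.676) per the authors' deposited table. The adjusted p of PER3 lies just above 0.05, and PER3 was called under other settings given further below. CRY1, which in mammals is also a target of the ROR element, had a value of -0.21 (p = 0.132 per the authors' deposited table). CRY4, counted among the 4 higher genes, was close to level (0.03, p = 0.871 per the authors' deposited table). Whether CRY4 acts as a repressor was not tested. Among the 4 activators 3 were higher and 1 lower, with 0 called. ARNTL2, a paralog of BMAL1, had a log2 fold change of 0.31 (p = 0.0303), CLOCK one of 0.05 (p = 0.742) and ARNTL one of -0.18 (p = 0.35) per the authors' deposited table.

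Genes known as targets of these factors in rodent liver lay on both sides of 0. Of 5 PAR bZIP target genes with a result, of 13 listed, 2 were higher and 3 lower, with 0 at an unadjusted p under 0.05 and a median log2 fold change of -0.06. POR, the electron donor of microsomal cytochromes P450, had a value of 0.18 (p = 0.195) and CYP7A1, the rate-limiting enzyme of bile acid synthesis, one of 0.08 (p = 0.659) per the authors' deposited table. Among 13 REV-ERB and ROR target genes with a result, 4 were higher and 9 lower (median -0.13), with 1 called. These 13 include CRY1, CLOCK, ARNTL and NPAS2, which were also counted in the loop above. The lipid droplet protein PLIN2 rose (log2 fold change 0.66, adjusted p = 0.036 per the authors' deposited table). On the low side at an unadjusted p under 0.05 were PPARGC1A (-0.77), a coactivator of RORs, the glucose-releasing enzyme G6PC (-0.37), and NFIL3 itself, whose REV-ERB control is known from mouse, all per the authors' deposited table. The apolipoproteins APOC3 and APOA1 had values of -0.31 (p = 0.128) and -0.05 (p = 0.743) per the authors' deposited table, and ELOVL3 is listed at 0.

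Of 14 other transcripts that cycle in mammalian liver, 10 were higher and 4 lower (median 0.12). PPP1R3C, a subunit that targets phosphatase to glycogen, rose (log2 fold change 0.76, adjusted p = 0.0137 per the authors' deposited table), and no other passed an unadjusted p of 0.05. TSC22D3, a glucocorticoid-induced leucine zipper protein, had a value of 0.25 (p = 0.0851 per the authors' deposited table). The C/EBP list held 3 higher and 1 lower gene with 0 called. Most of these are bZIP proteins that bind sites close to the D-box. CEBPZ, 1 of the 3 higher genes, shares the name but is not a bZIP protein (log2 fold change 0.12, p = 0.335 per the authors' deposited table). CEBPD had a log2 fold change of -0.38 (p = 0.0151) and CEBPB one of 0.05 (p = 0.749) per the authors' deposited table. The 65 pathway genes outside the set divided into 34 higher and 31 lower ones, and the median of their log2 fold changes was 0.03. Of these 65 genes 2 were called, against 0.273% of all genes with a result. An unadjusted p under 0.05 was found for 16 of them (24.6%), against 5.58% of all genes with a result. The lists were put together when earlier results of these data were known. These counts therefore describe the lists only, and enrichment was not tested.

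**Figure D4:**
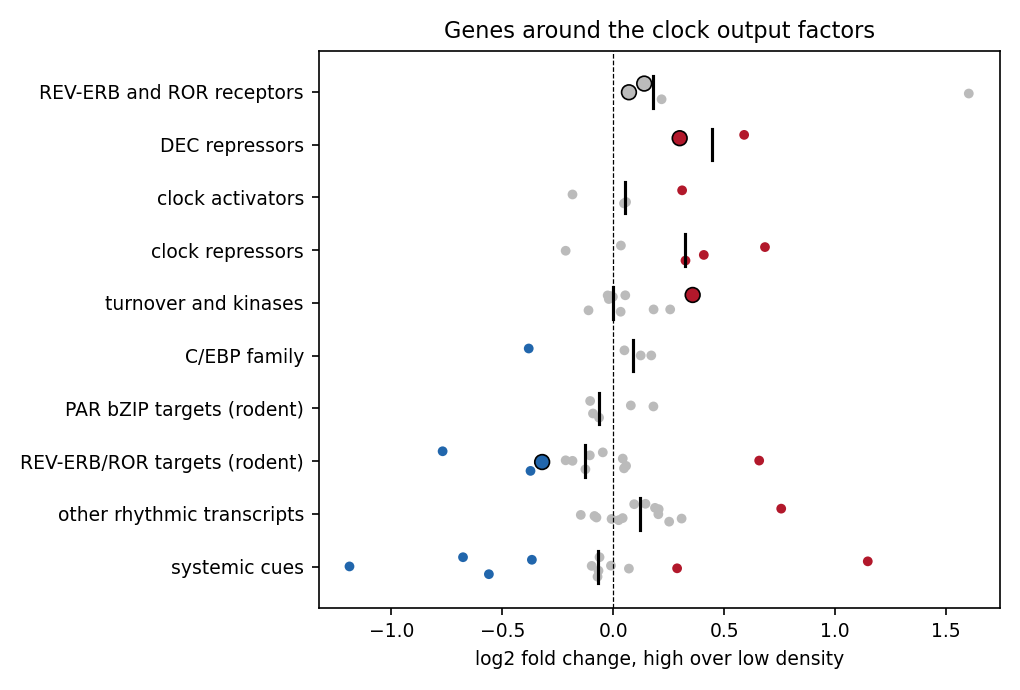
Log2 fold change of high over low density (x axis) for genes of 10 lists around the clock output factors (rows), with 1 point per gene, black bars at list medians, and clock output genes as larger points with a black outline. Red and blue points have an unadjusted p under 0.05 on the high and low side, as in the clock repressors (median 0.33) and the REV-ERB and ROR targets (median -0.13), and grey points do not.

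Most markers of the labelled tissue were present. RBP4 (means 0.32 at low and 0.49 at high density) and CPS1 (0.79 and 0.81) lay under a mean of 1. All 14 hepatocyte markers had a result, 10 higher and 4 lower (median log2 fold change 0.04), with 0 at an unadjusted p under 0.05. FGG, with the smallest p of these, had a value of 0.17 per the authors' deposited table. Heterophil markers were higher in 7 of 8 cases, with summed means of 31.9 and 50.2. AvBD1 had a log2 fold change of 0.99, while LYZ went the other way (-1.43, p = 0.0106 per the authors' deposited table). At an unadjusted p under 0.05 were 4 higher and 1 lower heterophil markers. Erythroid markers were higher in 6 of 7 cases, with summed means of 290 and 415. Of these, 2 higher and 1 lower had an unadjusted p under 0.05. SLC4A1 had a log2 fold change of 0.67 and HBZ, with a mean of at most 0.38, one of -2.21 (p = 0.0144) per the authors' deposited table. Of the cholangiocyte markers 5 of 6 were lower (summed means 48.1 and 39.2, KRT7 at a log2 fold change of -0.40 per the authors' deposited table). So were 7 of 9 stellate cell and fibroblast markers (summed means 280 and 253, POSTN at a log2 fold change of -0.40 per the authors' deposited table). Both lists held 2 lower and 0 higher markers at an unadjusted p under 0.05, against 3.12% of all genes on the low side. B cell markers were lower in 2 of 5 cases and higher in 3 (median log2 fold change 0.09, summed means 15.4 and 14.4). JCHAIN, 1 of the 2 lower genes, had a log2 fold change of -0.22 and means of 8.89 and 7.63. Endothelial markers were lower in 4 of 6 cases and higher in 2 (median -0.03, summed means 82.9 and 80.5). LYVE1, 1 of the 2 higher genes, had a log2 fold change of 0.14 per the authors' deposited table. None of the markers with a row was listed at 0, and 1 of them, GNLY, was called. The part of these cell types in the values of HLF, USP2 and BHLHE41 was not tested.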

How the data were processed

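Livers of 8 pooled libraries, 4 per stocking density, were sequenced on an Illumina HiSeq, per the labels' protocols. The submitters' processing notes name GRCg6a as the genome build; the aligner, the counting, the normalization and the test were not given in the sources used here. Data of 1 comparison were deposited by the authors. Per the headers these are a higher group mean, a log2 and a signed fold change, a p-value, an FDR p-value and a Bonferroni value. The FDR p-value is the adjusted p used above. All values are 0 in 3443 of 23613 genes, which were left out. With a p of 1 for these genes, an adjusted p recomputed by Benjamini-Hochberg differed from the deposited one by at most 2.4e-05. Group means, implied SE (log2 fold change over the normal quantile of its p-value) and 95% intervals were computed from the deposited values with Python 3.11.15, pandas 2.3.3 and SciPy 1.17.1. Only the adjustment and the SE formula were run on simulated data. The simulated p-values came from the same normal formula, so that run cannot test the Wald assumption. Depth per library is unknown.

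A gene was called at a deposited adjusted p under 0.05, the last choice of the planned design, since the table holds no column of single libraries. The members and gene lists were chosen with earlier results of these data known. Every member is named. Of each pathway list the genes named are those at an unadjusted p under 0.05 and the 2 with the largest mean. Of each marker list the called gene or the 1 with the smallest p is named. Relatives, neighbouring genes, ARNTL, NPAS2, CRY4, CEBPZ, LYZ, HBZ, RBP4 and CPS1 were added for context. Planned promoter and protein comparisons were not run, and no sequence is shown. A gene left out of the receptor list is not reported here.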

Additional observations from a re-analysis of the deposited data

How the results depend on the processing

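The count of 0 called clock output genes held when p-values were adjusted over the 20170 genes with a result, when adjusted over genes with a mean of at least 1, under the Bonferroni adjustment and at an adjusted p of 0.1. The lowest adjusted p of a member, that of HLF, was 0.75 as deposited, 0.639 over genes with a result and 0.516 over genes with a mean of at least 1. Centring on the median of genes with a mean of at least 1 left 6 members higher and reversed no member's direction. Of the list genes outside the set, cell markers included, 3 were called as deposited and 4 under the other Benjamini-Hochberg settings. The gene added under those settings was PER3, a clock repressor with a deposited adjusted p of 0.0516. Under the Bonferroni adjustment, which uses a stricter limit, 0 were called. No paired analysis was possible because the table holds no values per library, and for the same reason no library could be left out and no count model, pseudocount or filter on low counts could be tried.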

Other observations

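A list drawn up around systemic cues to the liver clock (glucocorticoid, feeding, heat and cAMP) held values on both sides. None of its 12 genes with a result was called. The list includes metabolic enzymes that respond to such cues and are not themselves signals to the clock. This list was also chosen with earlier results of these data known, so its counts describe the list only. At an unadjusted p under 0.05 there were 2 on the high side and 4 on the low side, against 2.46% and 3.12% of all genes. On the low side were SIK1 (log2 fold change -1.19, p = 0.00166), a kinase, and CREM (-0.56, p = 0.00808), a transcription factor, in the authors' deposited table. The enzymes PDK4 (-0.68, p = 0.00397) and CPT1A (-0.37, p = 0.0259) of the authors' deposited table were also on that side. PCK1, the gluconeogenic enzyme, had a log2 fold change of 1.15 (p = 0.00736) and SGK1, a glucocorticoid-induced kinase, one of 0.29 (p = 0.0467) in the authors' deposited table. HSPA8 (-0.10) and TAT (-0.01), the list members with large means, were close to level in the authors' deposited table.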
